A study of Mus musculus with 2 samples.

Results

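The genes described here encode the proteins of the mitochondrial ribosome, followed in the liver of mice with and without Pgrmc1, a heme-binding membrane protein. Members were chosen by symbol alone, as Mrpl (large subunit) or Mrps (small subunit) followed by a number and without the pseudogene suffix -ps. The rule found 77 genes among the 24054 in the table of TPM (each gene's share of the transcript pool, corrected for transcript length), of which 48 belong to the large and 29 to the small subunit by name. The rule itself uses no measured value.

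The study compared liver RNA of male whole-body Pgrmc1 KO (Pgrmc1 -/Y) mice with that of WT mice, all 8 to 12 weeks old and of strain C57BL/6 by label. The KO came from a floxed allele, made on C57BL/6N. It had been recombined by Sox2-Cre, which is active in the early embryo, to remove part of the gene in the whole body. The paper showed loss of the protein in liver lysate, and single liver cell types were not examined. Equal masses of RNA (2.5 μg per mouse) were pooled by genotype before a stranded total RNA library was made, which left 1 library for each genotype. The spread between mice was therefore not measured, no p-value was computed, and each difference below is between 2 libraries and has no replicate check. In bulk liver, fewer cells of a type and less RNA per cell cannot be told apart.

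The labels held for Pgrmc1, at 0.68 TPM in KO against 949 in WT. The 8 hepatocyte markers were all abundant, from 459.7 to 47242 TPM in KO and from 637 to 49729 TPM in WT. Summed markers of other liver cells were 191 TPM in KO and 169.6 in WT for Kupffer cells, 198 and 219 for stellate cells, 155 and 173 for endothelial cells, and 62.0 and 66.9 for cholangiocytes. Red cell markers summed to 1795 TPM in KO and 1680.4 in WT, and lymphocyte markers to 1.65 and 1.49. The part of these cells in the values below was not tested.

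Mitochondria keep a ribosome of their own, which translates the few messenger RNAs that mitochondrial DNA encodes, all of them for core subunits of the oxidative phosphorylation complexes. Its RNA is made in the organelle, but its proteins are encoded in the nucleus, translated in the cytosol and imported. Many of them descend from proteins of the bacterial ribosome, and the others were added in the mitochondrial lineage. Hepatocytes are rich in mitochondria, and loss of single subunits in people causes disorders of oxidative phosphorylation in which liver and heart are often affected.

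All 77 members had a RefSeq position on GRCm38. They lay on 17 nuclear chromosomes, with 10 on chromosome 11, 8 on chromosome 17 and 7 on chromosome 6, and 0 were on mitochondrial DNA. Many shared a start region with a neighbour. A protein-coding gene on the other strand started head to head with 26 of the 77 members (33.8%), counting starts up to 1000 bases apart or overlapping by up to 500 bases, against 9.53% of 21951 protein-coding genes of the GENCODE annotation. That background also holds genes not expressed in liver, and the share among expressed genes alone was not computed. One such pair joined both subunits, since Mrpl46 and Mrps11 start head to head on chromosome 7 with GENCODE gene models that overlap by 412 bases. Other partners were mitochondrial genes too, such as Ndufs6, a complex I subunit, beside Mrpl36, Sars2, the mitochondrial seryl-tRNA synthetase, beside Mrps12, and Ptcd2, a mitochondrial RNA-binding protein, beside Mrps27. Mrpl49 shared its start region with Fau, which encodes a protein of the cytosolic small subunit.

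RefSeq promoter windows, from 250 bases before to 50 bases after a start on GRCm38.p6, were at hand for 68 of the 77 members (74 windows). Motifs of factors known for nuclear genes of mitochondrial proteins were searched on both strands, spelled GCGCA and GCGC with 1 base between them for NRF1, CCGGAAG for ETS factors such as GABP, and AAGATGGC for YY1, none of which contains another. At least 1 of these was found in 42 member windows (56.8%), against 28.4% of windows of expressed genes (those that average 1 TPM or more over both libraries) and 14.7% of all 32851 windows. The 4 stretches that follow, cut to 150 bases before and 30 bases after the start, are shown because they belong to the member with the highest change (Mrpl36), the member with the lowest (Mrpl40), the member with 3 NRF1 matches (Mrpl45) and the most abundant member (Mrps21), with matches in capitals. Those of Mrpl36 (chr13:73330859-73331038) and Mrpl45 (chr11:97315566-97315745) are on the plus strand, and those of Mrpl40 (chr16:18876608-18876787) and Mrps21 (chr3:95871485-95871664) on the minus strand, each read in the direction of the gene.
Mrpl36: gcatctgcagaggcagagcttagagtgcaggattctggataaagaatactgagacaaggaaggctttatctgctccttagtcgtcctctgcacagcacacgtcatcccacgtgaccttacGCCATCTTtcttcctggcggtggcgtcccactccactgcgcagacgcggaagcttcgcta
Mrpl40: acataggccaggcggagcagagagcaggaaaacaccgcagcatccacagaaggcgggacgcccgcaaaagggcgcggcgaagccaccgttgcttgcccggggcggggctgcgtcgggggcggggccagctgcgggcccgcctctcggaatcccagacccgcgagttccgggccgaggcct
Mrpl45: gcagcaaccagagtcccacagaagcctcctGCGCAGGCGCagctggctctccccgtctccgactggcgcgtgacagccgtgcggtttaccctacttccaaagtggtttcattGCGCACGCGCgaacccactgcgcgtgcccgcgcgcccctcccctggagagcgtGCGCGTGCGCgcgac
Mrps21: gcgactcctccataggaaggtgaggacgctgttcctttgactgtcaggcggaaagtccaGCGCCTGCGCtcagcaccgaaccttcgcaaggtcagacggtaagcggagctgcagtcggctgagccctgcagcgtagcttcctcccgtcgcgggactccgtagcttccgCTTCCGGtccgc

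The start used for Mrpl36 lies within the RefSeq gene, which begins further upstream at chr13:73328503. That used for Mrpl45 also lies within its gene, which begins at chr11:97314923. These stretches are therefore not at the first base of the gene, and head-to-head pairs were read from GENCODE starts instead. In Mrpl36 the capitals mark a YY1 match on the reverse strand that begins 30 bases before the start used. The Mrpl45 stretch holds NRF1 matches that begin 120 and 38 bases before the start on the forward strand and 15 bases after it on the reverse strand. That of Mrps21 holds an NRF1 match 91 bases before and an ETS match 18 bases after the start, both on the reverse strand. No match of the 3 motifs is in the Mrpl40 window, which says only that these letters are absent there.

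By motif, the ETS letters were in 33.8% of member windows against 17.4% of windows of expressed genes, the YY1 letters in 16.2% against 4.48%, and the NRF1 letters in 17.6% against 10.1%. The general promoter elements differed less or in the other direction. The SP1 letters GGGCGG were in 52.7% of member windows against 61.3%, CCAAT in 40.5% against 37.9%, and TATAAA in 6.76% against 7.71%. Median GC content was 58.5% in member windows and 60.3% in those of expressed genes. The transcripts of the factors themselves were at 6.04 TPM in KO against 6.24 in WT for Nrf1 and at 23.6 TPM in KO against 24.4 in WT for Gabpa, the DNA-binding subunit of GABP. Yy1 stood at 32.3 TPM in KO against 33.7 in WT. A match is a description of the letters, and binding of a factor was not measured.

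**Figure D1:**
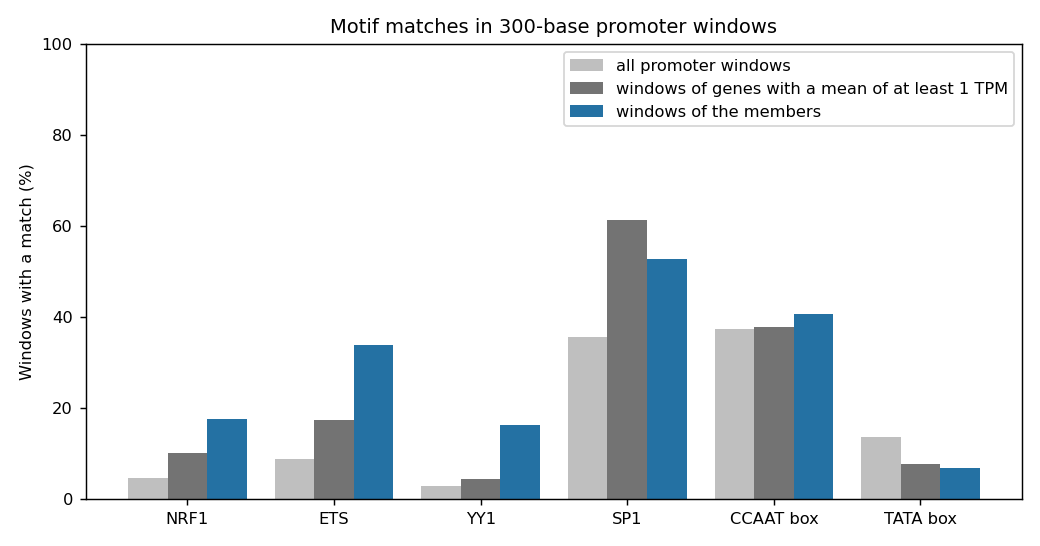
Percent of 300-base RefSeq promoter windows with at least 1 match of each motif, for all windows, windows of expressed genes and windows of the members (74). For NRF1 (17.6%), ETS (33.8%) and YY1 (16.2%) the member bars stand well above the other bars, for the CCAAT box (40.5%) slightly, and for SP1 (52.7%) and the TATA box (6.76%) below that of expressed genes.

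Every member was detected in both pooled libraries. All 77 averaged more than 1 TPM and 72 at least 10 TPM (44 of the large and 28 of the small subunit), and together they made up 0.285% of all TPM in KO and 0.289% in WT. Although the ribosome holds its proteins in nearly equal number, their transcripts spanned 41.6-fold, from 2.83 TPM for Mrps25 to 117 TPM for Mrps21 as the mean of both libraries. The order was nearly the same in KO and WT, with a Spearman correlation of 0.99 across the 77 genes, which share both libraries. Levels were lower for genes with a longer transcript, with a Spearman correlation of -0.55 between mean TPM and the longest coding transcript, where transcript length also enters the TPM. Estimated reads lay much closer together, at 230 in KO and 321 in WT for Mrps25 and at 383 and 515 for Mrps21. Across the members, mean TPM and reads in both libraries had a Spearman correlation of 0.32. The order of abundance given here is therefore one of TPM, and depends on the length correction.

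In the large subunit the most abundant transcript was that of Mrpl52, a protein that only mitochondrial ribosomes have, at 111 TPM in KO against 105 in WT. Mrpl30 followed with 82.7 TPM in KO against 90.5 in WT, and Mrpl20 with 76.6 TPM in KO against 79.0 in WT. Both have bacterial counterparts, L30 and L20. At the low end, Mrpl19 stood at 4.19 TPM in KO against 4.15 in WT, Mrpl17 at 6.93 and 7.20 TPM, and Mrpl35 at 8.35 and 9.53 TPM, all of them again with bacterial counterparts. A bacterial ancestor was thus found at both ends of the order.

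In the small subunit, Mrps21 led with 116 TPM in KO against 119 in WT. Mrps18c, one of 3 paralogs of the bacterial protein S18, had 59.0 TPM in KO against 67.8 in WT, and Mrps7, which helps to shape the head of the subunit, had 59.1 and 57.1 TPM. Mrps25, which has no bacterial counterpart, was the least abundant of all members, at 2.77 TPM in KO against 2.88 in WT. Next came Mrps11 with 11.7 TPM in KO against 12.3 in WT, and Mrps6 with 12.8 and 11.2 TPM. Mrps11 and Mrps6 thus changed places in the order between the libraries.

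**Figure D2:**
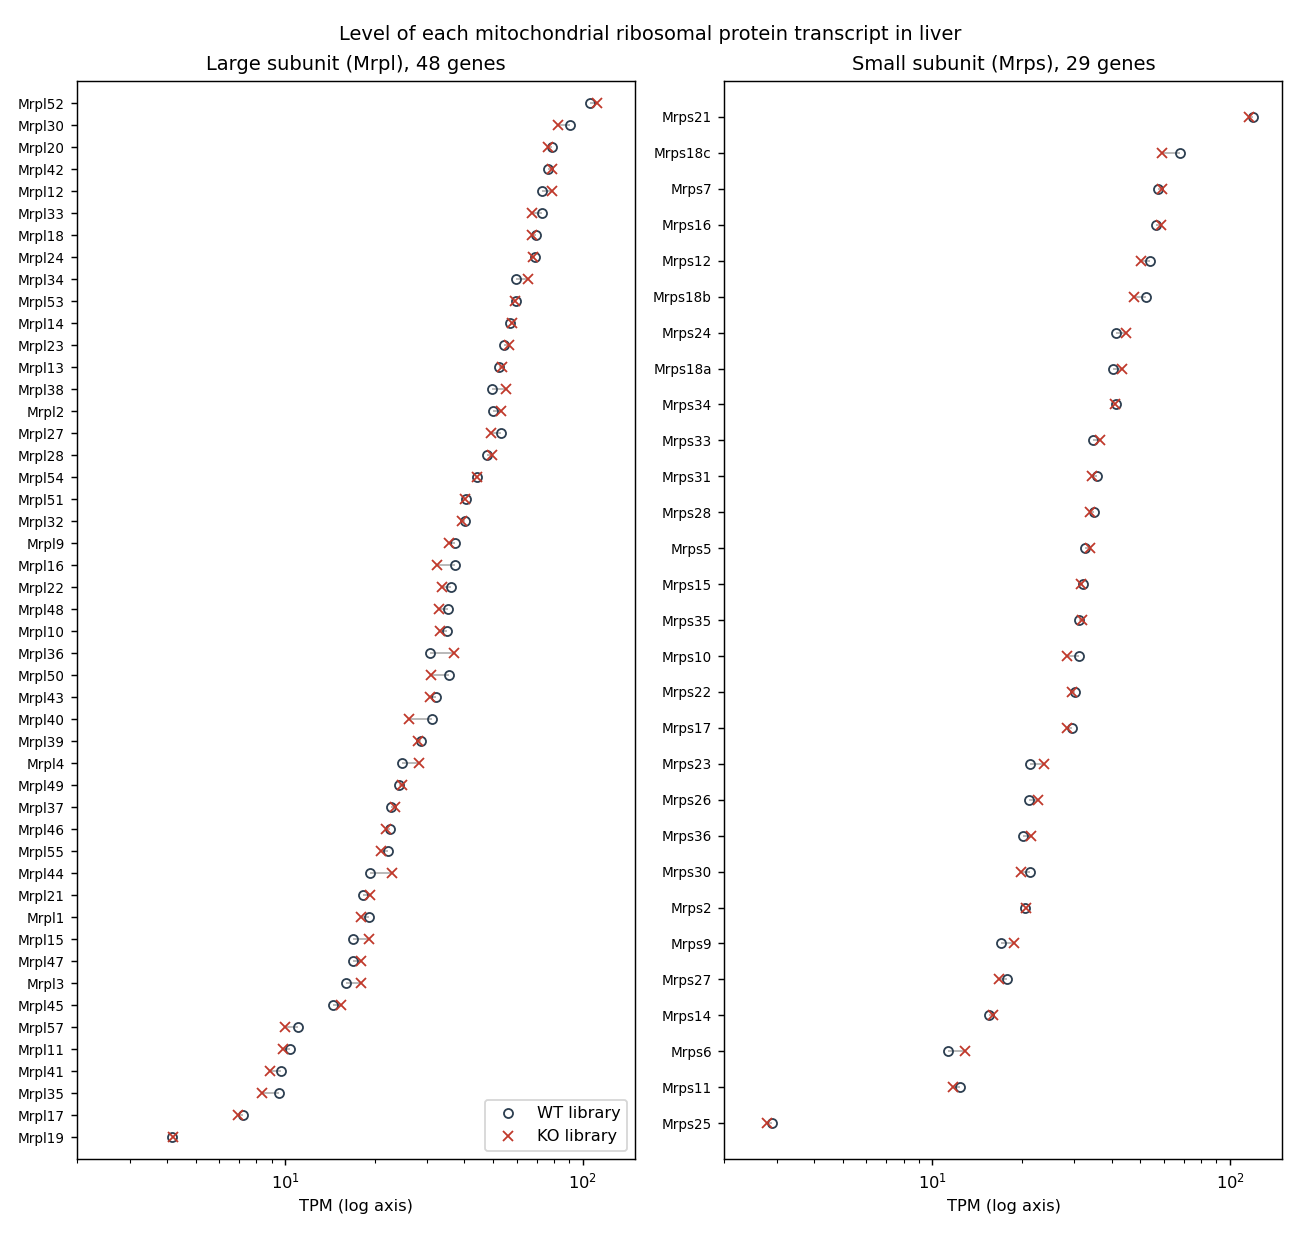
TPM of each member (log axis) in the WT library (circles) and the KO library (crosses), large subunit left and small subunit right, sorted by the mean. The symbols nearly coincide along a range from 2.83 TPM (Mrps25) to 117 TPM (Mrps21).

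Levels in the KO library were close to those in the WT library. The change of a gene is the log2 ratio of its TPM, KO over WT, after 1 TPM was added to both, which makes the change of a scarce transcript look smaller. The members' median change was -0.01, as was that of the 11623 expressed genes. Of the 77, 36 lay above 0 and 41 below (45.8% of all 11623 genes lay above 0). A change of at least 1.2-fold in either direction was found in 0 of 77 members, where 5.39% of all genes were that much higher in KO and 5.51% that much lower. Mrpl36 alone passed that threshold with a pseudocount of 0.1 TPM or after centring on the median gene, and 2 members (Mrpl36 and Mrpl44) did so in the authors' means, which are estimated reads per library over a size factor. Members ran from 0.841-fold for Mrpl40 to 1.197-fold for Mrpl36, and all of them lay within the central 90% of all genes, which spans -0.27 to 0.27 on the log2 scale. Within 1.1-fold were 64 members (83.1%), against 67.3% of all genes. The members' median level was 33.2 TPM, against 11.2 TPM for all expressed genes. These shares were not matched for level, so they do not show whether the members were steadier than genes of like abundance.

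Both subunits gave nearly the same summary. Large subunit genes had a median change of -0.02, with 22 above and 26 below 0, and their TPM summed to 1871 in both KO and WT. Small subunit genes had a median of -0.01, with 14 above and 15 below 0, and summed to 994 TPM in KO and 1003 in WT. On the scale of the authors' means, the ratio of the sums had a 95% counting interval of -0.01 to 0.04 (log2) for the large and of -0.02 to 0.05 for the small subunit, from 22964 and 11503 estimated reads in KO and 30730 and 15348 in WT. These intervals, like those below, are Clopper-Pearson intervals on estimated reads and cover counting error only.

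Splitting each subunit by ancestry made little difference. The 30 large subunit genes with a bacterial counterpart had a median change of -0.02 and the 18 found only in mitochondria one of -0.01. For the small subunit, without Mrps18a and Mrps30, whose proteins sit in the large subunit, the medians were 0.00 (16 genes) and -0.01 (11 genes, with Mrps18b and Mrps36 counted among them). Mrps36 encodes a protein now known as a subunit of the 2-oxoglutarate dehydrogenase complex. It stood at 21.4 TPM in KO against 20.2 in WT.

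Counting error was of the size of the differences themselves. The members had 109 to 960 estimated reads in KO and 127 to 1294 in WT, and the median counting error of a member's log2 ratio was 0.09, beside a standard deviation of 0.11 among the 77 changes. The counting interval lay above 0 for 5 members (Mrpl12, Mrpl38, Mrpl4, Mrpl44 and Mrpl36) and below 0 for 2 (Mrpl40 and Mrpl50), where 11.7% of 11543 genes lay above and 13.4% below. All 7 are of the large subunit, and for each of the 29 small subunit genes the interval held 0. For 36 members, 24 large and 12 small, both bounds lay within 1.2-fold. For the other members the reads of these libraries did not limit the ratio to that range. The share of all expressed genes with both bounds in that range was not computed. Their median counting error was 0.0950, against 0.0948 for the members.

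At the upper end of the large subunit, Mrpl36, the counterpart of bacterial L36, stood at 37.0 TPM in KO against 30.8 in WT, a change of 0.26 with an interval of 0.09 to 0.49. Mrpl44, a protein with an RNase III-like fold near the exit of the peptide tunnel, had 22.9 TPM in KO against 19.3 in WT (0.24, interval 0.07 to 0.46). Mrpl4, which lines that tunnel, had 28.0 and 24.6 TPM (0.18, interval 0.02 to 0.39). Each was higher in KO by more than its counting error, and by less than 1.2-fold once 1 TPM was added, though the ratio of the authors' means passed 1.2-fold for Mrpl36 and Mrpl44. Mrpl15 stood at 19.0 TPM in KO against 16.9 in WT (0.17, interval -0.01 to 0.26), and Mrpl3, which reaches towards the peptidyl transferase centre, at 18.0 and 16.1 TPM (0.16, interval -0.03 to 0.39). The intervals of both held 0.

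At the lower end, Mrpl40, a protein of the central protuberance, stood at 26.0 TPM in KO against 31.1 in WT, a change of -0.25 with an interval of -0.44 to -0.04. Mrpl50 had 30.9 TPM in KO against 35.5 in WT (-0.19, interval -0.31 to -0.06). Neither of these has a bacterial counterpart. Mrpl16, Mrpl35 and Mrpl57 came next, and for each the interval held 0. Their levels in KO and WT were 32.5 and 37.1 TPM for Mrpl16 (-0.19, interval -0.35 to 0.00), 8.35 and 9.53 TPM for Mrpl35 (-0.17, interval -0.36 to 0.00), and 9.96 and 11.0 TPM for Mrpl57 (-0.13, interval -0.35 to 0.08).

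Among small subunit genes, Mrps6, the counterpart of bacterial S6, had the highest change, 0.18, with 12.8 TPM in KO against 11.2 in WT. It also had the fewest reads of all members, and its interval ran from -0.17 to 0.59. Mrps23 followed with 23.7 and 21.2 TPM (0.15, interval -0.03 to 0.37), Mrps9 with 18.8 and 17.0 TPM (0.14, interval -0.06 to 0.37), Mrps24 with 44.6 and 41.5 TPM (0.10, interval -0.04 to 0.29), and Mrps18a with 43.4 and 40.5 TPM (0.10, interval -0.06 to 0.31). At the other end was Mrps18c with a change of -0.20 (interval -0.39 to 0.06). Its paralog Mrps18b stood at 47.7 TPM in KO against 52.3 in WT (-0.13, interval -0.27 to 0.04). The 3 S18 paralogs occupy different places in the ribosome, and Mrps18a sits in the large subunit despite its name. Mrps10 had 28.4 and 31.1 TPM (-0.13, interval -0.32 to 0.09), Mrps12, the decoding centre protein, 50.2 and 53.9 TPM (-0.10, interval -0.27 to 0.12), and Mrps30, another large subunit protein by structure, 19.8 and 21.3 TPM (-0.10, interval -0.27 to 0.10).

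**Figure D3:**
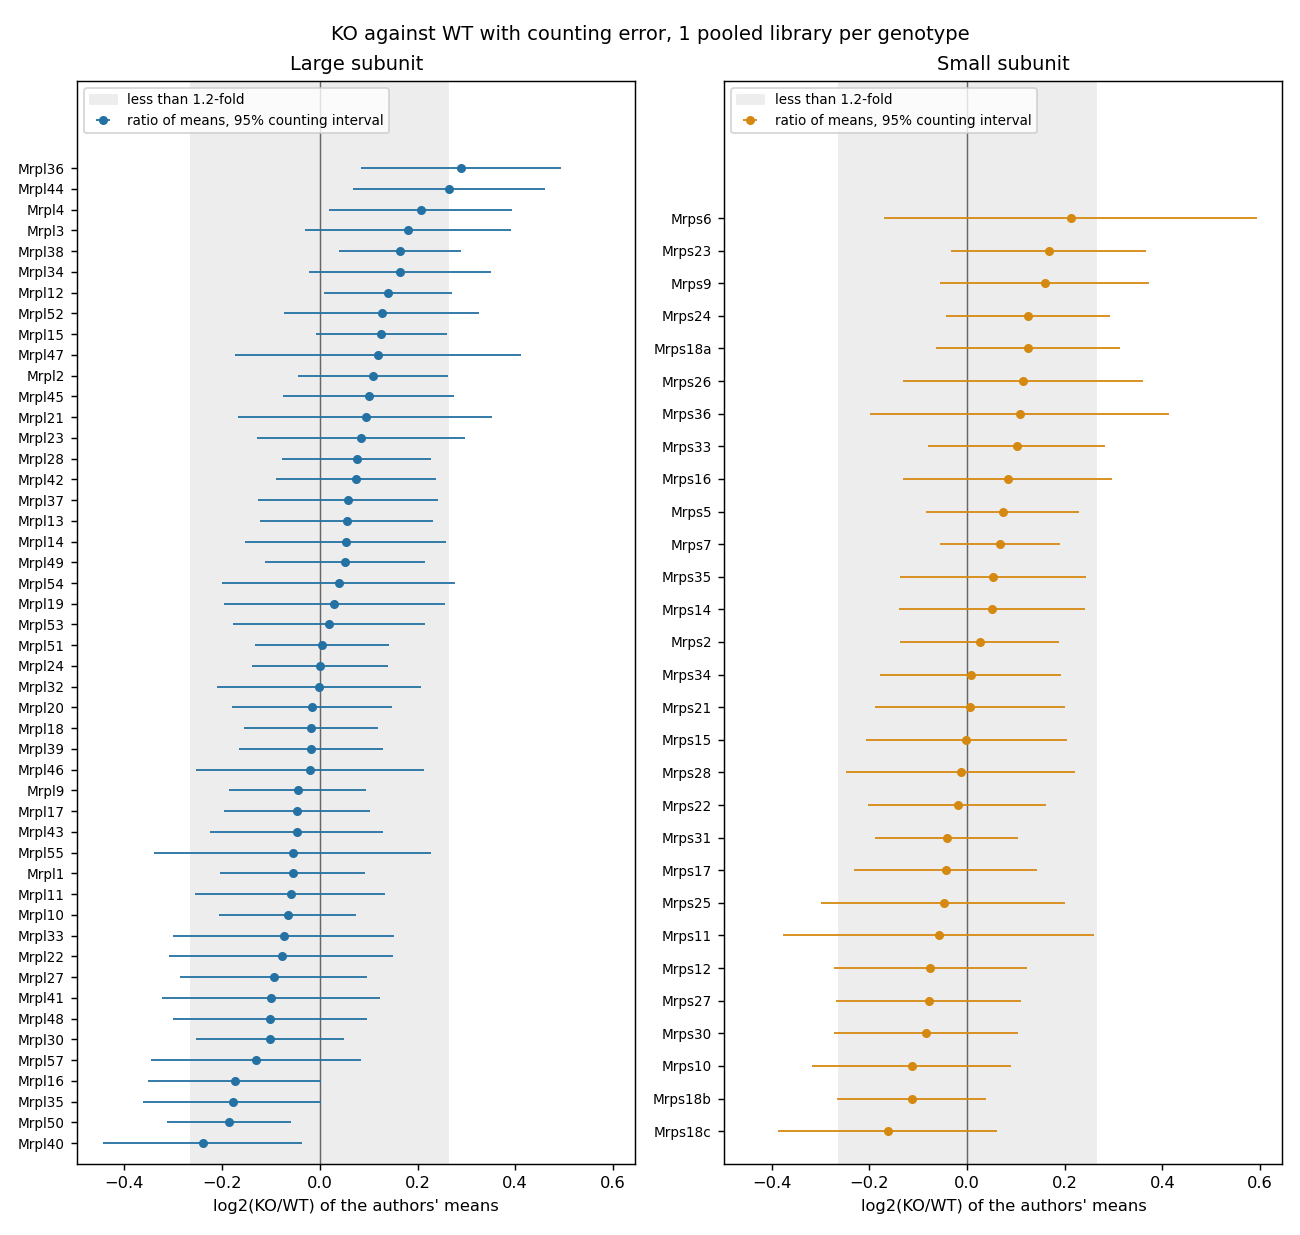
Ratio of the authors' means, KO over WT, on the log2 scale for each member (points) with its 95% counting interval (lines), large subunit left and small subunit right, where the grey band marks changes under 1.2-fold. The intervals of 5 large subunit genes lie above 0 and those of 2 below, and all 29 small subunit intervals cross 0.

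Of the most abundant members, Mrps18c had the lowest change of the small subunit (-0.20), and the others lay closer to 0. Mrpl52 had a change of 0.08 (interval -0.07 to 0.33), Mrpl30 one of -0.13 (interval -0.25 to 0.05) and Mrpl20 one of -0.04 (interval -0.18 to 0.15). For Mrps21 the change was -0.04 (interval -0.19 to 0.20), and for Mrps7 it was 0.05 (interval -0.06 to 0.19). Among the scarce members, Mrpl35 (-0.17) and Mrps6 (0.18) were near the ends of their subunits. The change was 0.01 for Mrpl19 (interval -0.20 to 0.26), -0.05 for Mrpl17 (interval -0.20 to 0.10), -0.04 for Mrps25 (interval -0.30 to 0.20) and -0.07 for Mrps11 (interval -0.38 to 0.26). Across all 77 genes, which share both libraries, the Spearman correlation of the change was -0.01 with mean TPM and -0.02 with the longest coding transcript.

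Parts of the large subunit were also examined. The stalk recruits translation factors, and its genes lay on both sides of 0. Mrpl12, which forms the mobile stalk and has also been described as a partner of the mitochondrial RNA polymerase, had 79.0 TPM in KO against 72.7 in WT, a change of 0.12 with an interval of 0.01 to 0.27. Mrpl10, its anchor, had 33.0 and 35.0 TPM (-0.08, interval -0.21 to 0.07), and Mrpl11, at the stalk base, 9.83 and 10.3 TPM (-0.07, interval -0.25 to 0.13). The mitochondrial additions to the stalk, Mrpl53 with 59.1 and 59.6 TPM (-0.01, interval -0.18 to 0.22) and Mrpl54 with 44.2 and 44.0 TPM (0.01, interval -0.20 to 0.28), were nearly level. The 8 genes around the exit of the peptide tunnel had a median change of 0.01, with 4 above 0 (45.8% of all expressed genes lay above 0). The 8 genes of the central protuberance, the crown of the large subunit, had a median of -0.06, with 2 above 0 and a range from -0.25 (Mrpl40) to 0.14 (Mrpl38).

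Among the 7 subunit genes long known by other names (Mrpl57 is one), 1 passed 1.2-fold. Of all expressed genes, 5.39% were that much higher in KO and 5.51% that much lower. The counting interval lay above 0 for 11.7% and below 0 for 13.4% of all genes that had one. Chchd1, a small subunit protein with a CHCH fold, stood at 47.7 TPM in KO against 62.4 in WT, a change of -0.38 with an interval of -0.57 to -0.14, from 284 and 491 estimated reads. It shared 0% of its 100-base windows with another gene. Ict1, a peptidyl-tRNA hydrolase built into the large subunit, had 34.3 TPM in KO against 29.4 in WT (0.22, interval 0.01 to 0.49), and Ptcd3, a pentatricopeptide protein of the small subunit, had 31.1 and 28.1 TPM (0.14, interval 0.04 to 0.28). Gadd45gip1 was at 28.1 and 26.7 TPM (0.07, interval -0.06 to 0.25), Aurkaip1 at 49.3 and 49.6 TPM (-0.01, interval -0.13 to 0.15), and Dap3, the GTP-binding protein of the small subunit, at 8.91 and 9.03 TPM (-0.02, interval -0.17 to 0.15).

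The genes that build and serve the mitochondrial ribosome were compared next. The list of assembly factors also holds Tmem70 and Lonp1, which are not specific to the ribosome. Of 30 assembly factors, 3 passed 1.2-fold upwards (5.39% of all expressed genes did) and 0 downwards (5.51%), with a list median of 0.05 and 18 above 0 (45.8%). The 3 were Rnmtl1 (7.94 TPM in KO, 5.75 in WT, 0.41, interval 0.14 to 0.83), Ftsj2 (6.07 and 4.76 TPM, 0.30, interval -0.03 to 0.76) and Trub2 (5.89 and 4.74 TPM, 0.26, interval 0.04 to 0.57). Rnmtl1 and Ftsj2, now called Mrm3 and Mrm2, methylate the ribosomal RNA of the large subunit, and Trub2 is a pseudouridine synthase of mitochondrial RNA. The lowest of the list was Ptcd1 with 5.84 TPM in KO against 6.87 in WT (-0.20, interval -0.46 to 0.01). Among 15 translation factors 0 passed 1.2-fold, the median was 0.03, and 11 lay above 0. They ran from Slirp, an RNA-stabilizing protein with 89.4 and 94.2 TPM (-0.07, interval -0.24 to 0.19), to Taco1, a translational activator of Cox1, with 21.0 and 18.1 TPM (0.20, interval 0.02 to 0.44).

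Of 20 genes for charging mitochondrial tRNAs, 1 passed 1.2-fold upwards (5.39% of all expressed genes did) and 0 downwards (5.51%). Lars2, the leucyl-tRNA synthetase, was at 14.5 TPM in KO against 11.1 in WT (0.35, interval 0.24 to 0.54). The list median was -0.01, and Yars2, the tyrosyl-tRNA synthetase, was lowest with 14.2 and 16.2 TPM (-0.18, interval -0.40 to 0.04). Among 18 genes that maintain or express mitochondrial DNA or regulate its nuclear partners, 3 were higher and 2 lower by at least 1.2-fold, beside 5.39% and 5.51% of all expressed genes, with a median of -0.02. Higher were Myc, a growth-related transcription factor (5.89 and 3.16 TPM, 0.73, interval 0.59 to 1.26), Polg2, the accessory subunit of the mitochondrial DNA polymerase (6.23 and 4.77 TPM, 0.33, interval -0.02 to 0.74), and Ssbp1, which binds single-stranded mitochondrial DNA (19.6 and 16.0 TPM, 0.27, interval 0.09 to 0.51). The lower pair were coactivators of mitochondrial biogenesis, Ppargc1a (4.96 and 6.36 TPM, -0.30, interval -0.52 to -0.18) and Ppargc1b (4.76 and 6.43 TPM, -0.37, interval -0.66 to -0.19). Genes of cytosolic ribosomal proteins had a median change of 0.04 with 58 of 80 above 0 (72.5%). Subunit genes of the respiratory chain and ATP synthase had one of 0.02 with 49 of 77 above 0 (63.6%). Of all expressed genes, 45.8% lay above 0. No difference between these lists and the members was tested.

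**Figure D4:**
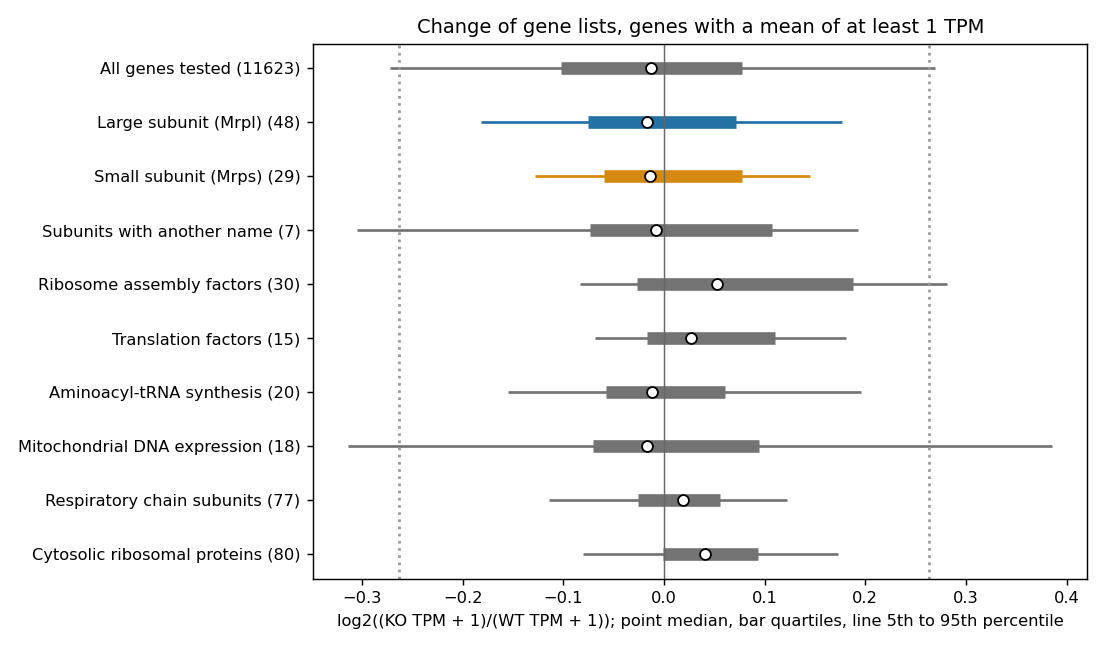
Log2 change in TPM (KO over WT, 1 TPM added) for gene lists, with the number of expressed genes in parentheses. Points are medians, bars quartiles and lines the 5th to 95th percentile across genes, and dotted lines mark 1.2-fold. The medians of the large (-0.02) and small (-0.01) subunit lie at that of all genes (-0.01).

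Head-to-head partners were read side by side with their members. The GENCODE gene models of Mrpl36 and Ndufs6 overlap by 29 bases at their starts. Mrpl36 was at 0.26 while Ndufs6 stood at 182 TPM in KO against 180 in WT (0.02). Mrpl40 at -0.25 had Hira beside it with 3.85 and 4.25 TPM (-0.11). Mrpl44 at 0.24 and its partner Wdfy1, with 9.61 and 8.36 TPM (0.18), were both higher, and Mrpl50 at -0.19 and Zfp189, with 5.69 and 6.74 TPM (-0.21), both lower. Other pairs went in opposite directions. Among them were Mrps18b at -0.13 with Ppp1r10 at 14.8 and 13.0 TPM (0.17), and Mrps12 at -0.10 with Sars2 at 6.85 and 6.07 TPM (0.15). Over the 22 members whose partner was expressed, the Spearman correlation of the changes was 0.26, a description across genes of the same 2 libraries in which the Mrpl46 and Mrps11 pair enters from both sides.

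Some members share sequence with near copies or overlapping genes, and the authors' counting can divide reads only between genes of its own reference. At least 1 window of 100 bases was shared with another gene in 18 of 77 members, and over 20% of windows in 5 (Mrpl22, Mrpl23, Mrpl33, Mrpl53 and Mrps6). All windows of Mrpl53 are shared with Gm42688, which overlaps it on the same strand, and Mrpl23 shares 49.0% of its windows with the pseudogene Mrpl23-ps1. Mrps6 shares 8.03% with a gene of the table, Slc5a3, which overlaps it on the same strand. For Mrpl22, Mrpl23, Mrpl33 and Mrpl53 no window was shared with a gene of the table. The levels of these 5 genes are uncertain where reads of the other gene could be counted to them. A protein-coding gene overlaps 23 members on the other strand and 4 on the same strand. A stranded library can keep reads of opposite strands apart, but use of the strand in the counting was not checked.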

How the data were processed

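Liver RNA of Pgrmc1 KO and WT mice was sequenced as 1 pooled library per genotype, assigned from the labels. The authors made FASTQ files with CASAVA 1.8.2 and ran RSEM 1.2.09 with Bowtie on mm10 (versions from the submitters' processing notes). They deposited posterior mean TPM for 24054 genes, with column sums of 1005325 (KO) and 994702 (WT). From EBSeq, the authors also deposited a signal for 16318 genes, the mean of each library (estimated reads over a size factor), used here. The columns of means carry no genotype name and were assigned to KO and WT through the study's own table of the same values. Fold changes and posterior probabilities of that table were not used.

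The most frequent mean was taken as 1 read, which gives 22086692 reads in KO and 29710419 in WT. Within 0.02, 78.4% and 75.0% of the means were whole reads, so intervals (Clopper-Pearson, 95%) are approximate, and no count test was run. They refer to the ratio of the means without a pseudocount, and changes to TPM with 1 added. With 1 library per genotype there was no test, and lists were described by counts and medians beside all expressed genes (mean over both libraries of 1 TPM or more). The interval was tried only on simulated independent whole reads, the case it is built for. That trial cannot show how it performs on these estimated reads of pooled mice.

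Members and lists were chosen with earlier results of these data known. Named were members past 1.2-fold, the 5 highest and 5 lowest changes and the 3 most and 3 least abundant of each subunit, the stalk, subunits with another name, the extremes and genes past 1.2-fold of related lists, and Pgrmc1. Other genes (Nrf1, Gabpa, Yy1, Mrpl38, Mrpl45, Mrps36, head-to-head partners and genes that share sequence) were chosen after their values were seen. Positions are RefSeq on GRCm38, head-to-head starts and shared windows from GENCODE M21. Alternatives were the authors' means, other scalings, pseudocounts, minimum levels and thresholds, and subunits by structure. Software was Python 3.11.15 with scipy 1.17.1, numpy 2.4.6, matplotlib 3.10.9 and pandas 2.3.3.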

Additional observations from a re-analysis of the deposited data

How the results depend on the processing

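The ratios of summed TPM of both subunits moved by less than the counting error of their summed reads under all alternatives tried. The medians were held to the same error, as none was computed for a median, and also moved by less. They ran from -0.02 to 0.00 for the large and from -0.02 to 0.01 for the small subunit. Counts past the fold threshold depended on its place. In place of 0, the number of members higher in KO was 2 with the authors' means (Mrpl36 and Mrpl44), 1 after centring on the median gene, 1 with a pseudocount of 0.1 TPM (Mrpl36 in both) and 8 at a threshold of 1.1-fold, where 5 were lower in KO. The cause was not tested, but Mrpl36 lies next to the threshold. Counts were 0 at 1.4-fold and 0.6-fold. Within 1.1-fold lay 83.1% of the members and 67.3% of all expressed genes, so fewer members than genes at large passed that threshold. For the other settings the share of all genes is not given here. Of the 77 single changes, 5 had the other sign in the authors' means and 2 after centring. No paired analysis was possible because mice were pooled into a single library per genotype, and no library could be left out. Pooling hides the spread between mice, so the intervals understate the error of a comparison of genotypes.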

Other observations

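The deposited TPM and the authors' means gave slightly different changes for the same genes. Over all 77 members the change in the means was higher by a median of 0.02 (log2). The difference followed the reads per TPM, with a Spearman correlation of -0.83 across the 77 genes. The 20 members with the fewest reads per TPM in WT differed by a median of 0.03 and at most by 0.05 (Mrpl52). Among the 20 with the most, the median was 0.01, and Mrpl15 stood at -0.04, lower in the means than in TPM. Genes were chosen here after their values were seen.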
